A study of Mus musculus with 6 samples.

Results

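GABPa binding in lin-CD34- cells was set against open chromatin in lin-CD34+ cells, to see which bound regions lay in chromatin that was accessible in the other population. The regions described are the 2194 GABPa ChIP-seq peaks on the 19 autosomes, of 2525 peaks in the GABPa list. Each was sorted by whether it shared at least 1 bp with any of 142471 distinct ATAC-seq intervals on the same chromosomes. In all, 416 GABPa peaks overlapped an ATAC interval (19.0%, exact 95% interval 17.3 to 20.7) and 1778 did not. Intervals in brackets after a share cover counting error only. The overlap rule had members close to its limit on both sides. A peak assigned to Pard3 shared 1 bp with an ATAC interval and had 12 tags, and a peak assigned to Wwox missed one by 1 bp and had 10 tags.

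All material came from EML cells, a cultured mouse line of blood precursors whose strain is given as B6D2F1. Cells without lineage markers were separated by magnetic beads and flow sorting into a lin-CD34- population, in which GABPa was immunoprecipitated, and a lin-CD34+ population, in which ATAC-seq was done. Each of the 2 groups was 1 library, so nothing measures the spread between cultures and no p-value is given. Population and assay changed together: the series has no library for accessibility in the lin-CD34- cells or for GABPa binding in the lin-CD34+ cells. The series also holds STAT3 and SOX4 ChIP-seq of lin-CD34+ cells, used for overlaps and in the total of genes named, and a control library for each population, not used here. A GABPa peak outside ATAC was therefore one with no listed interval in lin-CD34+ cells, which does not show that its chromatin was closed in the cells in which GABPa was mapped. The lists show depth only through the number of tags (reads) under each peak.

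GABPa is the DNA-binding subunit of GABP, an ETS-family transcription factor that pairs with GABPb and recognises a CCGGAAG core. In mammalian cells it is best known for binding promoters of genes for mitochondrial proteins, ribosomal proteins and other functions that every cell needs. ATAC-seq maps accessible DNA as the places where a transposase can insert adapters. LINE-1 elements are retrotransposons present in many similar copies, on which short reads can be hard to place.

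The promoter sequences shown first belong to the strongest ATAC-overlapping GABPa peaks, together with Gabpa itself, because the core lies in most of them. They are stretches of 120 bases from RefSeq promoter windows (GRCm38.p6, the assembly named mm10), printed 5′ to 3′ along the gene's strand. Capitals mark CCGGAAG or its reverse complement CTTCCGG. The Cltc window, shown for contrast, held neither although its peak had the highest score of the list.
Tent2 (Papd4), chr13:93192368-93192487 (minus strand): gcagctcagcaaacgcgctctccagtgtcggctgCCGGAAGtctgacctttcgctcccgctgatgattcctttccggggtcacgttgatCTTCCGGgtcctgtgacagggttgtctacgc
Map4k1, under the Eif3k peak, chr7:28981800-28981919 (plus strand): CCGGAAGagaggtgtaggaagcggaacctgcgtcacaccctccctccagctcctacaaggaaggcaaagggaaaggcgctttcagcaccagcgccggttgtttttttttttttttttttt
Mitd1, under the Mrpl30 peak, chr1:37890486-37890605 (minus strand): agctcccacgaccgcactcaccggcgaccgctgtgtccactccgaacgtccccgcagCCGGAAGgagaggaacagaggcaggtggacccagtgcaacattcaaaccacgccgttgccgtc
Vti1a, chr19:55315975-55316094 (plus strand): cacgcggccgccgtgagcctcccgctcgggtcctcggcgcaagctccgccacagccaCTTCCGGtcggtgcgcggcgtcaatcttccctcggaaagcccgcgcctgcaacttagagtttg
Rmnd1, chr10:4432438-4432557 (minus strand): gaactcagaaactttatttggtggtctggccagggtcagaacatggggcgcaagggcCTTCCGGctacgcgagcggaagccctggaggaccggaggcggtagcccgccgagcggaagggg
Psmc1, chr12:100110117-100110236 (plus strand): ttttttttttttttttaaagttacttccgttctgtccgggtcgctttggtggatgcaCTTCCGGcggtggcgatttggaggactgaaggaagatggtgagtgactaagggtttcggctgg
Gabpa, chr16:84834974-84835093 (plus strand): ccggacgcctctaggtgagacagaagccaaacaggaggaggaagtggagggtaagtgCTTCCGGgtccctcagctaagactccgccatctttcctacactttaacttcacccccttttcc
Cltc, chr11:86757608-86757727 (minus strand): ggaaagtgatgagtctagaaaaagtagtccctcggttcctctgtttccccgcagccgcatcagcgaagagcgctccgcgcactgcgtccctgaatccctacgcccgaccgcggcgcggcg

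The next stretches come from the strongest promoter peaks outside ATAC. Capitals mark the same letters. Immt and Snhg10 are shown because each held the core, and Ints13 and Gm21188 because their windows did not.
Immt, chr6:71831144-71831263 (plus strand): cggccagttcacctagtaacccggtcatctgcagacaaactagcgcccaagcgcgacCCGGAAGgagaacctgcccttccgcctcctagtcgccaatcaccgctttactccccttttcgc
Snhg10, chr12:105032232-105032351 (minus strand): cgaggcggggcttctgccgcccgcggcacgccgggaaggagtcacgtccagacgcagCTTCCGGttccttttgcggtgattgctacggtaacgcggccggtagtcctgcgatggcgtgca
Ints13 (Asun), chr6:146577876-146577995 (minus strand): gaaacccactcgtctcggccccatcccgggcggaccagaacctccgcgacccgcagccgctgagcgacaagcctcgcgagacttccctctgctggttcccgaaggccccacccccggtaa
Gm21188, chr13:120052245-120052364 (minus strand): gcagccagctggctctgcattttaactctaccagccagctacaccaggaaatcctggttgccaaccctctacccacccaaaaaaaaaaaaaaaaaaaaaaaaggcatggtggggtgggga

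Most ATAC-overlapping GABPa peaks lay at gene starts, whereas few of the peaks outside ATAC did. Of the 416 ATAC-overlapping peaks, 238 were within 1000 bp of a transcription start site (TSS) by the deposited distance (57.2%, 52.3 to 62.0), against 53 of the 1778 peaks outside ATAC (2.98%, 2.24 to 3.88). The share was 13.8% among the distinct ATAC intervals themselves. Introns held 39.9% of the ATAC-overlapping peaks and 82.6% of those outside. CpG islands were the detailed annotation of 13 ATAC-overlapping peaks and of 1 peak outside ATAC. The nearest gene was protein-coding for 95% of ATAC-overlapping peaks and 86.6% of those outside. It carried a provisional name beginning with Gm or ending in Rik for 5.05% of ATAC-overlapping peaks and 15.4% of those outside. Both lists hold peaks in genes or within 5000 bp upstream of a TSS, so neither group describes regions farther away.

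**Figure D1:**
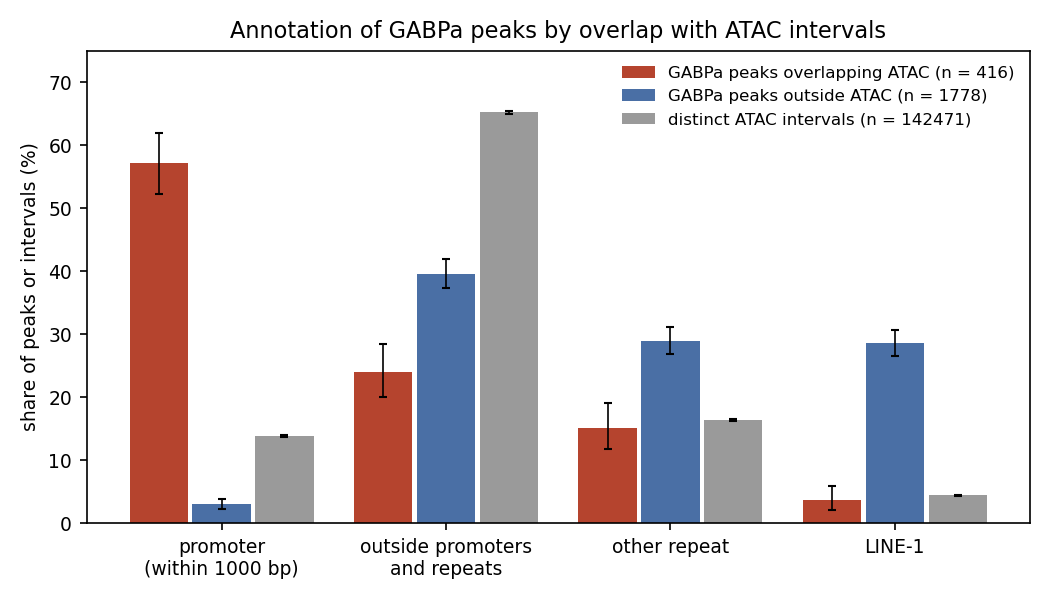
Share in percent of GABPa peaks overlapping ATAC, GABPa peaks outside ATAC and distinct ATAC intervals that fall in each of 4 annotation classes. Bars are shares and error bars exact 95% intervals. Promoters hold 57.2% of the ATAC-overlapping peaks and 2.98% of the others, while LINE-1 elements hold 3.61% of the ATAC-overlapping peaks and 28.6% of the others.

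Repeats ran the other way. An annotated repeat held 84 ATAC-overlapping peaks (20.2%, 16.4 to 24.4) and 1029 peaks outside ATAC (57.9%, 55.5 to 60.2), against 21.1% of ATAC intervals. Among repeat classes, LINE-1 elements differed most, with 15 ATAC-overlapping peaks (3.61%, 2.03 to 5.88) and 509 peaks outside ATAC (28.6%, 26.5 to 30.8), against 4.45% of ATAC intervals. Elements named L1Md, LINE-1 families of the mouse, held 4 ATAC-overlapping peaks and 268 outside. By family, 0 of 76 peaks in L1Md_A overlapped ATAC, as did 1 of 101 in L1Md_F2, 2 of 52 in L1Md_T and 1 of 38 in L1Md_F3. The 0 of 76 has an upper 95% limit of 4.74%. Endogenous retroviruses of the ERVK group held 2 ATAC-overlapping peaks and 96 outside, and RLTR10-int, one of them, had 1 ATAC-overlapping peak of 44. SINEs, short retrotransposons, differed less: 10.8% of ATAC-overlapping peaks (8.0 to 14.2) and 15.2% of those outside (13.6 to 17.0) lay in them.

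Turned round, the share of GABPa peaks that overlapped ATAC depended on where the peak lay. It was 238 of 291 at promoters (81.8%, 76.9 to 86.0), 100 of 803 outside promoters and repeats (12.5%, 10.2 to 14.9), 63 of 577 in repeats other than LINE-1 (10.9%, 8.49 to 13.8) and 15 of 523 in LINE-1 elements (2.87%, 1.61 to 4.69). In these classes a promoter peak in a repeat counts as a promoter peak, so that 508 of the 509 LINE-1 peaks outside ATAC stay in the LINE-1 class. By chromosome the share ran between 10.3% on chromosome 14 and 26.3% on chromosome 11.

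The promoter peaks that overlapped ATAC included genes for trafficking, translation and mitochondrial proteins among the highest scores. Ranks here and below are among listed peaks, and stronger peaks may not be listed. Papd4 (Tent2), a cytoplasmic poly(A) polymerase, had 203 tags and a fold of 59.6 over the peak caller's background (chromosome 13, starting at 93191836). Mrpl30, a subunit of the mitochondrial ribosome, had 194 tags and a fold of 43.1. Eif3k, a subunit of translation initiation factor eIF3, had 179 tags and a fold of 57.5 (chromosome 7, 28981346 to 28982653). At each of these 3 genes, a single ATAC interval covered more than 50% of the peak: 55.0% at Papd4, 58.1% at Mrpl30 and 69.7% at Eif3k.

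Vti1a, a SNARE of vesicle transport, had 176 tags, and Cltc, the clathrin heavy chain, had 107 tags. The Cltc peak (chromosome 11, 86757517 to 86758278) lay whole within one ATAC interval of 1477 bp. Rmnd1, which is needed for mitochondrial translation, had 91 tags and also lay whole within an ATAC interval, of 1121 bp. Orc2, part of the complex that marks replication origins, had 105 tags and 70.1% of its bases covered. Atp5a1, the alpha subunit of ATP synthase, had 212 tags. Tprgl and Slc9a8, a sodium/proton exchanger, had 174 and 140 tags. Each of these 10 highest-scoring promoter peaks overlapped a single ATAC interval.

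The gene for GABPa itself carried such a peak. It had 18 tags and a fold of 21.8 at 10 bp from the TSS (chromosome 16, 84834772 to 84835497), and the whole peak lay within an ATAC interval of 1327 bp. The start of Atp5j, coding for another ATP synthase subunit, lay under the same peak, so the peak cannot be assigned to one of these genes. Shared starts of this kind recurred: the Mrpl30, Vti1a, Rmnd1 and Eif3k peaks also covered the promoter windows of Mitd1, Zdhhc6, Armt1 and Map4k1.

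Away from promoters, the strongest ATAC-overlapping peak outside repeats was assigned to Psmc1, an ATPase subunit of the proteasome, with 168 tags at −2373 bp by the deposited distance (chromosome 12, 100109232 to 100110684). It covered a RefSeq promoter window of Psmc1, so the class depends on which start is used. Sec24c, a subunit of the COPII vesicle coat, had the most tags of any listed autosomal GABPa peak, 215, at −1401 bp. That peak was annotated to a B1_Mus1 element but was 3202 bp wide and covered the RefSeq promoter window of Sec24c. In all, 10 of 178 ATAC-overlapping peaks outside the promoter class covered a RefSeq promoter window, against 7 of 1725 peaks outside ATAC.

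Other strong ATAC-overlapping peaks lay within or near genes. A peak with 131 tags was assigned to Mamstr but lay in intron 8 of 11 of Rasip1, and the peak assigned to Rtkn2, with 50 tags, lay in intron 8 of 9 of Arid5b. Nbeal2, which is needed for platelet alpha granules, had 62 tags in intron 1 of 53 and 73.5% of the peak covered. Rfx3, a winged-helix factor, had 88 tags in an intergenic peak at −1102 bp, across 2 ATAC intervals. Vps39, a subunit of the HOPS tethering complex of lysosomes, had 125 tags in a peak annotated to the end of Tmem87a, with 9.95% of the peak covered. The peak assigned to Hnrnpul1, an RNA-binding protein, had 28 tags and was annotated to the end of Axl. Hnrnpu, a related protein, had 22 tags in intron 1 of 13. Among peaks in repeats, Srp9, a protein of the signal recognition particle, had 140 tags, Zscan25 had 95 in an intergenic peak, Dopey2 44 and Aacs, acetoacetyl-CoA synthetase, 40.

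Promoter peaks outside ATAC were weaker and of a more mixed kind. Asun (Ints13), a subunit of the Integrator complex, led them by score with 45 tags and a fold of 31.0, 2003 bp from the nearest ATAC interval. Immt, which organises the cristae of mitochondria, had the most tags, 66, but a fold of 12.6. Timm13, a chaperone of mitochondrial protein import, had 38 tags, and its nearest ATAC interval was 11213 bp away. Snhg10, a host gene of small nucleolar RNAs, had 31 tags and lay only 130 bp from an ATAC interval. That peak also covered a promoter window of Glrx5, and the Asun peak one of Fgfr1op2. Neither peak can therefore be assigned to a single gene. The remaining leaders were Vmn2r29, a vomeronasal receptor gene, with 45 tags, Gm21188 with 48, Gm13051 with 40 and Mup16, a major urinary protein gene, with 13.

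Some of these, such as Vmn2r29 and Mup16, belong to families of similar genes, so their assignment is uncertain. Whether reads were split or shared between copies was not tested. Nearest genes with Gm, Rik, Vmn, Olfr, Mup or numbered Zfp names made up 23 of 238 promoter peaks overlapping ATAC (9.66%, 6.23 to 14.1) and 19 of 53 promoter peaks outside it (35.8%, 23.1 to 50.2). This is a count of names, provisional ones included, and does not measure copies. For 11 of the 53 (20.8%) the same gene had an ATAC promoter interval elsewhere. No gene had promoter peaks of both kinds. An ATAC-overlapping promoter peak was found for 1.18% of all genes named in the series, and a promoter peak outside ATAC for 0.262%. With shares so low, the lack of a shared gene does not show that these kinds of peak favour separate genes. In all, 13 of the 53 (24.5%) lay under 500 bp from an ATAC interval and 22 (41.5%) lay 10000 bp or more away.

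The strongest peaks outside ATAC were not in the promoter class by the deposited distance. Taf4a, a subunit of the general factor TFIID, had a peak with 64 tags and a fold of 77.6 in intron 5 of 14 (chromosome 2, starting at 179933803), at rank 20 by score among all autosomal peaks. Tgfbr3, the TGF-beta co-receptor betaglycan, had 83 tags and a fold of 36.1 in intron 2 of 16. Efcc1 had 93 tags and a fold of 53.2 in an RMER6B element, the most tags of any peak outside ATAC, and that peak covered a RefSeq promoter window of Gm34414. All 3 genes had an ATAC interval at a promoter, away from the GABPa peak. An ATAC promoter interval was present for 68.3% of all genes named in the series.

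Fewer tags lay under the others of this kind. Peaks of E2f1, a cell cycle factor, at −4428 bp and of Osbp2 in intron 2 of 13 had 62 and 41 tags. Gm5088, annotated as a pseudogene, had 38 tags, Ggta1, a galactosyltransferase, 31, Mdm2, the ubiquitin ligase of p53, 28, and Npffr2 16. In LINE-1 elements the leaders were Gm3259 with 30 tags, Pde9a with 33, 2 peaks of Gm6367 with 28 and 43, and a peak with 16 tags assigned to Gpr52 that lay in intron 13 of 20 of Rabgap1l. In other repeats Xpot, the export receptor for tRNAs, had 40 tags, Gm3500 25, Galnt12 23 and Gm17455 18. The 5 genes with the most GABPa peaks had none that overlapped ATAC: Gm14432 with 10 peaks, 1700007B14Rik with 8, 1700110I01Rik and Gm16367 with 6 each, and Csmd3 with 5. Of the 8 peaks of 1700007B14Rik, 7 lay in LINE-1 elements.

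ATAC-overlapping peaks held more tags, chiefly at promoters. The median was 25 tags per peak overlapping ATAC (23 to 29) and 14 per peak outside (13 to 14), where the brackets give a 95% interval from order statistics over peaks of 1 library. At promoters the medians were 35 for peaks overlapping ATAC and 14 for those outside. Outside promoters and repeats they were 16.5 for peaks overlapping ATAC and 14 for those outside it, and in LINE-1 elements 17 for peaks overlapping ATAC and 13 for those outside it. At least 50 tags were found in 86 ATAC-overlapping peaks (20.7%) and in 8 of the 1778 outside. The deposited fold had a median of 16.7 for ATAC-overlapping promoter peaks and 11.4 for promoter peaks outside ATAC. Outside promoters and repeats, the medians were 12.1 for peaks overlapping ATAC and 11.9 for the rest.

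**Figure D2:**
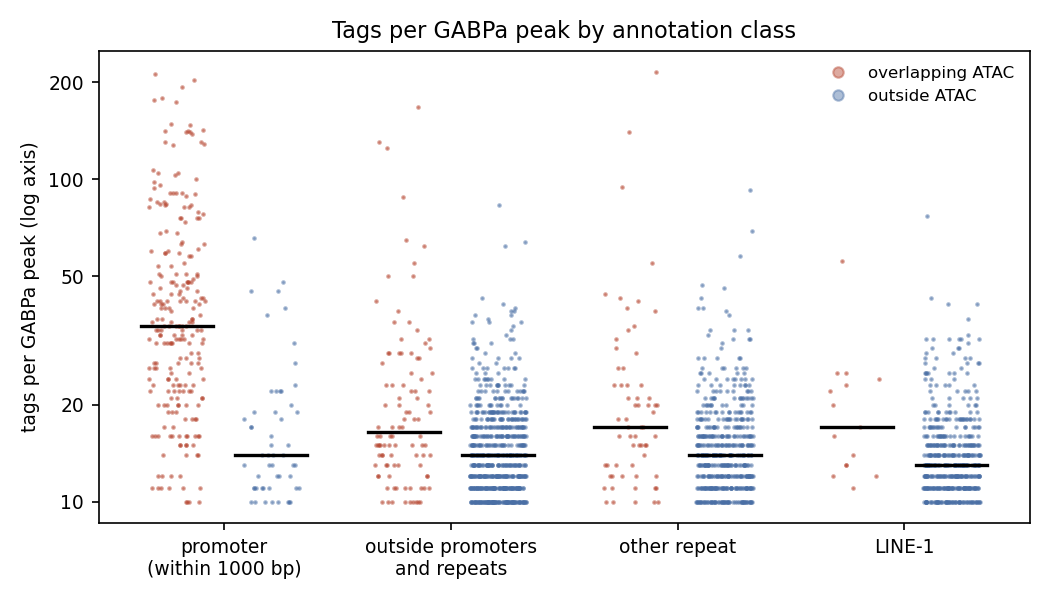
Tags per GABPa peak on a log axis in 4 annotation classes, with peaks overlapping ATAC to the left of peaks outside ATAC in each class. Each point is a peak and the black line is the median. At promoters the medians are 35 tags overlapping ATAC and 14 outside, and in the other classes the medians of the 2 groups lie within 4 tags of each other.

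The share of peaks that overlapped ATAC was higher in each higher tag class, overall and at promoters. Over all classes of annotation it was 7.01%, 11.1%, 41.9% and 91.5%, in order of rising tags. At promoters, it was 35.9% with 10 to 13 tags (14 of 39), 67.4% with 14 to 19 tags (29 of 43), 90.4% with 20 to 49 tags (123 of 136) and 98.6% with 50 or more (72 of 73). Outside promoters and repeats the same classes had 7.65%, 11.0%, 23.3% and 75%, the last from 9 of 12 peaks. LINE-1 peaks stayed low, at 1.78%, 1.7% and 9.38% in the first 3 classes, and only 2 of them had 50 or more tags. In the class of 10 to 13 tags, promoter peaks overlapped ATAC more often (35.9%, 21.2 to 52.8) than peaks outside promoters and repeats (7.65%, 5.14 to 10.9). Other differences, such as the width of ATAC intervals, were left free there, and the part of tags was not tested.

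**Figure D3:**
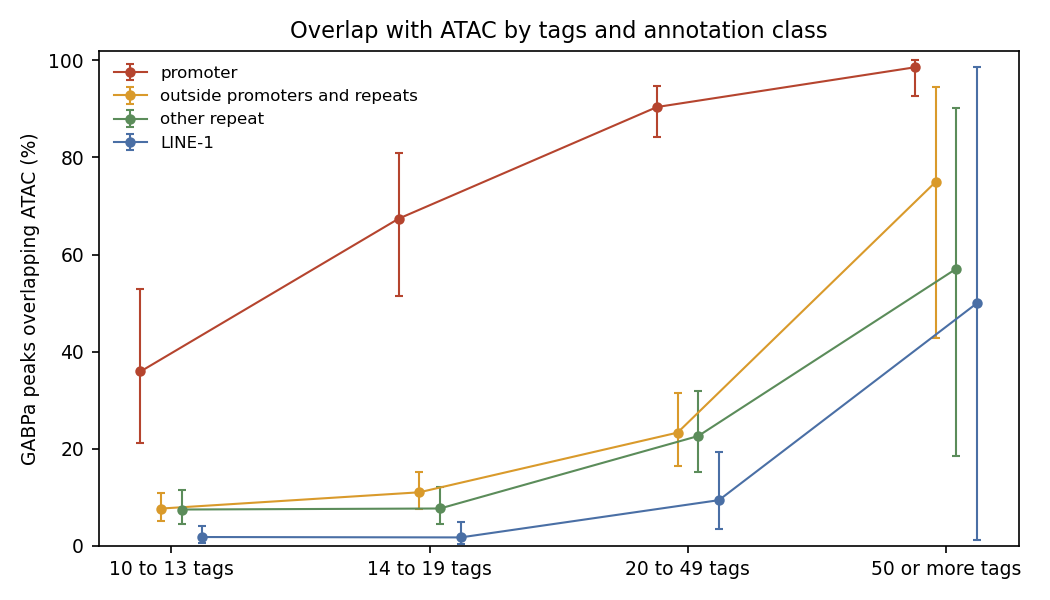
Share in percent of GABPa peaks that overlap an ATAC interval, by tags per peak and annotation class, with exact 95% intervals. At promoters the share reaches 98.6% at 50 or more tags, and LINE-1 peaks remain at 9.38% or less below 50 tags. The LINE-1 point at 50 or more tags rests on 2 peaks.

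Peak width moved with the overlap as well. Median width was 1158 bp for ATAC-overlapping peaks and 995 bp for those outside, and the share overlapping ATAC was 15.3%, 16.7% and 24.9% in the lower, middle and upper of 3 equal classes of width. Per 1000 bp, the median was 31.3 tags for promoter peaks overlapping ATAC and 16.4 for promoter peaks outside. Outside promoters and repeats it was 16.0 for peaks overlapping ATAC and 15.6 for the rest. With each peak reduced to 200 bp around its centre, 10.9% overlapped ATAC. The part of width in the comparison was not tested further.

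How a peak met the ATAC interval differed between promoters and other places. At promoters a median of 582 bases (48.2% of the peak) was covered by ATAC. The medians were 154 bases (13%) outside promoters and repeats, 135 (12.5%) in other repeats and 98 (6.99%) in LINE-1 elements. The summit, where tags pile up highest, lay inside an ATAC interval in 137 of 238 promoter peaks (57.6%, 51.0 to 63.9), 20 of 100 peaks outside promoters and repeats (95% interval 12.7 to 29.2), 7 of 63 in other repeats and 0 of 15 in LINE-1 elements (upper 95% limit 21.8%). The widest ATAC interval under the peak had a median of 786 bp at promoters and 170 bp outside promoters and repeats. A single interval lay under 348 of the 416 peaks, and 13 peaks overlapped by under 50 bp.

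Peaks outside ATAC were a median of 4114 bp from the nearest interval. The median gap was 6294 bp in LINE-1 elements, 3116 bp in other repeats, 2969 bp outside promoters and repeats and 6477 bp at promoters. In all, 18.3% lay under 1000 bp from an interval and 27.5% lay 10000 bp or more away.

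**Figure D4:**
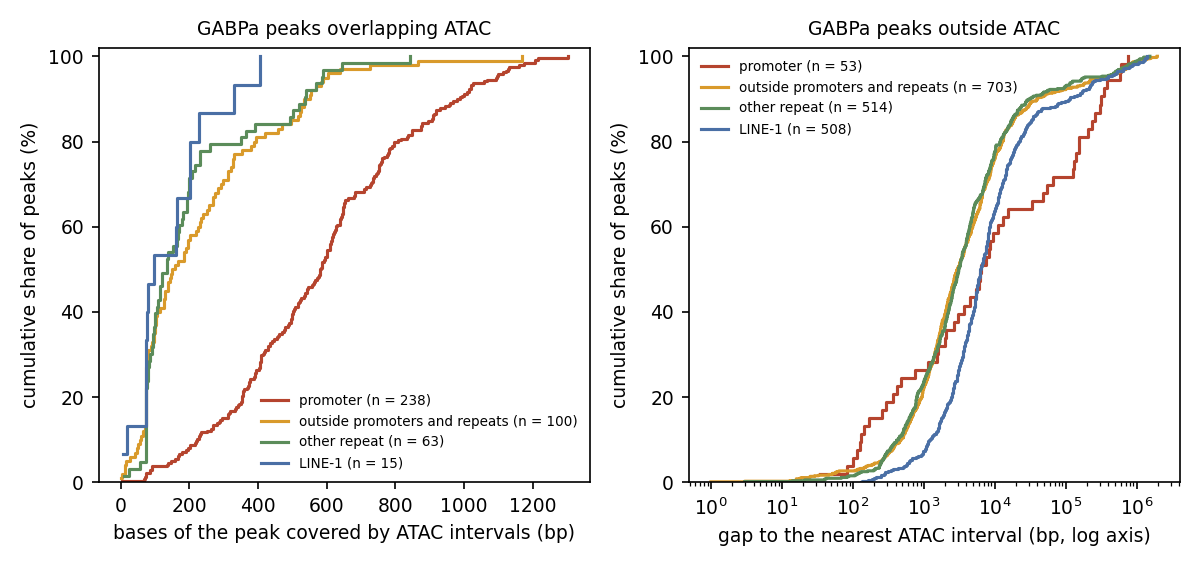
Cumulative share of GABPa peaks by bases covered by ATAC intervals, for peaks overlapping ATAC (left), and by gap in bp to the nearest ATAC interval on a log axis, for peaks outside ATAC (right), in 4 annotation classes. Promoter peaks were covered over a median of 582 bases and LINE-1 peaks over 98. LINE-1 peaks outside ATAC lay farther from ATAC, at a median of 6294 bp, than peaks outside promoters and repeats, at 2969 bp.

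Seen from the ATAC side, GABPa peaks met few intervals, with a larger median width than the rest. Of those met, 228 were over 500 bp wide and 264 were not. How far width itself made a shared base likelier under the 1 bp rule was not tested. Of 19725 ATAC intervals at promoters, 296 lay under a GABPa peak (1.5%, 1.34 to 1.68). The share was 2.67% for promoter intervals over 500 bp wide and 0.755% for narrower ones. Promoter ATAC intervals under a GABPa peak had a median width of 702 bp, against 304 bp for those with none. Away from promoters the medians were 145 bp under a GABPa peak and 123 bp with none.

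The CCGGAAG core was read on both strands in RefSeq promoter windows that reach 250 bases before and 50 after each TSS. It was present in 116 of 255 windows under an ATAC-overlapping GABPa peak (45.5%, 39.3 to 51.8), in 4 of 47 under a GABPa peak outside ATAC (8.51%, 2.37 to 20.4), in 2038 of 11142 windows with an ATAC interval and no GABPa peak (18.3%, 17.6 to 19.0) and in 669 of 19952 with neither (3.35%). Over all 31396 windows it was present in 9.0%. Several windows can lie under the same peak: the 255 lay under 185 peaks and the 47 under 30. Intervals that count each window separately, here and in the CpG classes below, are therefore too narrow. The low share under peaks outside ATAC rests on the 1 bp rule: counted per gene, with incomplete matching, it was 8.11% under that rule and 30.8% to 36.1% where more overlap was needed for a peak to count as overlapping. The longer CCGGAAGT, which contains the core, was present in 23.5% of windows under ATAC-overlapping GABPa peaks, 0 of 47 under GABPa peaks outside ATAC, 8.54% with ATAC alone and 1.15% with neither, and in 3.95% of all windows. At least 2 cores were present in 8.24% of the windows under ATAC-overlapping peaks and 2.13% under peaks outside ATAC. Tent2 is one with 2, as printed above, and Immt, of whose 2 cores 1 lies in the stretch shown, is the one outside ATAC. A match is a description of these letters and shows no bound site.

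CpG content moved with these groups: the median was 22 CpGs per 300-base window under ATAC-overlapping peaks, 4 under GABPa peaks outside ATAC, 21 in windows with ATAC alone and 4 in windows with neither. Within windows of 10 to 19 CpGs, the core was present in 45.9% under ATAC-overlapping peaks (35 to 57), against 18.8% with ATAC alone (17.4 to 20.3). Within 20 to 29 CpGs the shares were 54.4% under ATAC-overlapping peaks and 25% with ATAC alone. Of the windows under GABPa peaks outside ATAC, 32 of 47 had fewer than 10 CpGs, and none of those held the core. It was present in 1 of 5 with 10 to 19 CpGs, 1 of 7 with 20 to 29 and 2 of 3 with 30 or more. With 30 or more CpGs the shares were 44.3% under ATAC-overlapping peaks and 20.1% with ATAC alone. In the lowest class 1 of 19 windows under ATAC-overlapping peaks held it.

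**Figure D5:**
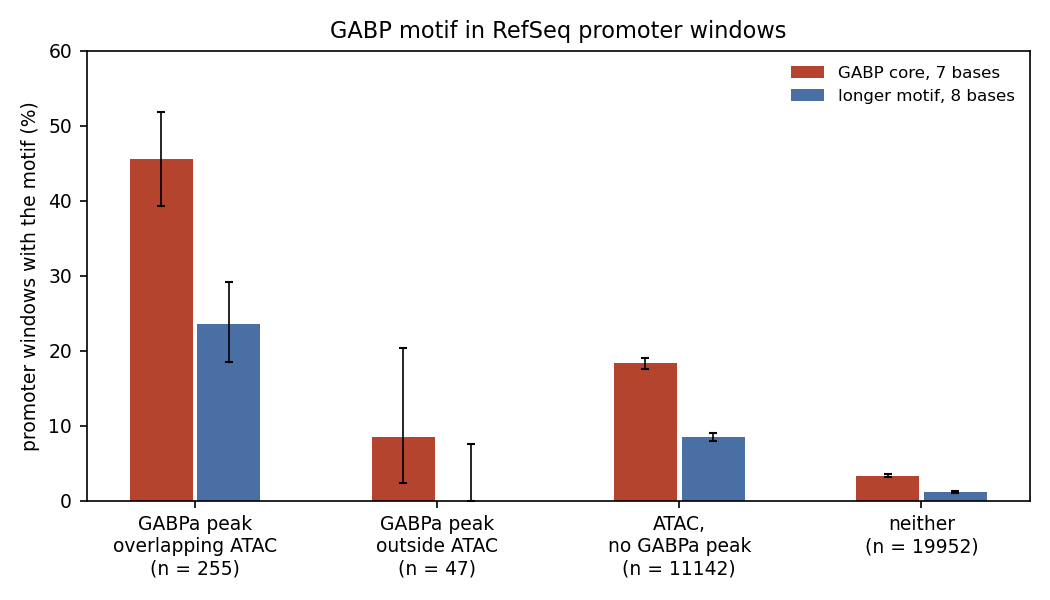
Share in percent of RefSeq promoter windows that hold the GABP core of 7 bases or the longer motif of 8 bases on either strand, in 4 groups of windows, with exact 95% intervals. Each window counts separately, also where several lie under the same peak, so the intervals are too narrow. The core is in 45.5% of windows under GABPa peaks that overlap ATAC, 8.51% under GABPa peaks outside ATAC, 18.3% with ATAC alone and 3.35% with neither, all by the 1 bp overlap rule.

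Per peak, 93 of 185 ATAC-overlapping peaks that covered a promoter window had the core in one of the windows (50.3%, 42.8 to 57.7). Outside ATAC, 4 of 30 such peaks did (13.3%, 3.76 to 30.7). Those with the core had a median of 36 tags and those without it 35, among ATAC-overlapping peaks. Within these windows, the nearest core lay a median of 191 bp from the summit of ATAC-overlapping peaks, and at most 848 bp. The rest of each peak was not searched, so a nearer core may lie outside the windows. The nearest core in a window lay 22 bp away at Psmc1, 93 bp at Rmnd1, 100 bp at Gabpa and 119 bp at Papd4, in the stretches printed above. Among the promoter peaks outside ATAC the distance was 232 bp at Snhg10 and 444 bp at Immt.

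Gene lists were read as counts of members with a peak. An ATAC-overlapping promoter peak was found for 238 of the 20195 genes named in any list of the series (1.18%), and a promoter peak outside ATAC for 53 (0.262%). At any distance, an ATAC-overlapping peak was found for 412 genes (2.04%) and a peak outside ATAC for 1498 (7.42%). The 10 lists of functions that every cell uses held 33 of 498 genes with an ATAC-overlapping promoter peak (6.63%) and 4 with a promoter peak outside ATAC. The 7 lists of blood and other cell type genes held 1 of 109 genes with the first kind (0.917%) and 0 with the second. An ATAC promoter interval was present for 90.4% of the genes of general function and 69.7% of the blood and marker genes, against 68.3% of all genes. An interval at a shared start counts only for the gene it was assigned to, which leaves out Mrpl30, Gabpa, Prpf38a and Psmc2 among others. Among genes with such an interval, 6.22% of those of general function and 1.32% of the blood and marker genes had an ATAC-overlapping GABPa promoter peak, against 1.58% of all.

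Mitochondrial genes contributed to both kinds of peak. Of 71 mitochondrial ribosomal genes, 5 had an ATAC-overlapping promoter peak (7.04%, against 1.18% of all genes). Among them were Mrpl33 with 51 tags, Mrpl20 with 42 and Mrpl28 with 26. None had a promoter peak outside ATAC, which 0.262% of all genes had. Peaks outside ATAC assigned to Mrpl3 (intron 5 of 9) and to Mrps24 (in an intron of Ankrd36) had 10 and 18 tags. Ssbp1, which binds single-stranded mitochondrial DNA, had 74 tags and 77.3% of the peak covered. Tomm22, a receptor of the import pore, had 84 tags but 7.62% covered. Of 67 genes of oxidative phosphorylation, 2 had an ATAC-overlapping promoter peak (2.99%, against 1.18% of all genes). These were Atp5a1 and Ndufs3 of complex I, with 35 tags at Ndufs3. The Ndufs3 peak was annotated to the start of Kbtbd4 and covered promoter windows of both genes, so it cannot be assigned to one of them. Ppargc1a, a coactivator of mitochondrial genes, had intronic peaks of both kinds, with 11 tags each.

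Genes of protein synthesis and turnover gave 4 of 66 cytosolic ribosomal genes, 3 of 40 initiation factors, 2 of 35 tRNA synthetases and 2 of 43 proteasome genes with an ATAC-overlapping promoter peak. In that order the shares were 6.06%, 7.50%, 5.71% and 4.65%, against 1.18% of all genes. Rpl41 had 140 tags, Rpl32 and Rpl30 had 51 each, and Rplp2 had 55 tags in a peak annotated to a simple repeat at −1271 bp. Rps29 was the ribosomal gene with a promoter peak outside ATAC, with 22 tags and 8366 bp to the nearest interval. Eif4e, the cap-binding factor, had 31 tags, Yars, the tyrosyl-tRNA synthetase, 76, Rars, the arginyl-tRNA synthetase, 18, and Psmd7 45. The Yars peak was annotated to the start of S100pbp and covered promoter windows of both genes, so it cannot be assigned to one of them. Proteasome genes were the list with the most members carrying peaks outside ATAC, 6 of 43. Psmd5 had 19 tags, Psmd3 20, and Psme2 and Psme4 12 each.

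Splicing, cell cycle and trafficking genes had 3 of 58, 5 of 50 and 4 of 36 members with an ATAC-overlapping promoter peak. The shares were 5.17%, 10.0% and 11.1%, against 1.18% of all genes. Prpf38a had 149 tags, Prpf19 100 and Prpf18 76, all splicing factors. The Prpf38a peak with 149 tags was annotated to the start of Orc1, a gene of the cell cycle list. It covered promoter windows of both genes, so it cannot be assigned to one of them. Prpf38a also had a peak outside ATAC with 12 tags, which lay in an intron of Tut4. Snrnp70, a protein of the U1 particle, had a promoter peak outside ATAC with 18 tags. Mcm3, a subunit of the replicative helicase, had 79 tags, E2f2 29 and Cdc6, a licensing factor, 23. Arcn1, a coatomer subunit, had 43 tags. Peaks outside ATAC in the cell cycle list, at E2f1, Ccnd3 and Orc3, were not in the promoter class, although the one at Ccnd3 covered a RefSeq promoter window of Gm41590. Those of Vps35, Copg2 and Sec24d in the trafficking list were not in it either.

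Of 109 blood and marker genes, 2 had an ATAC-overlapping peak at any distance (1.83%, against 2.04% of all genes) and 6 a peak outside ATAC (5.50%, against 7.42% of all genes). None of 28 stem and progenitor transcription factors had an ATAC-overlapping peak, which by a limit of 3 counts allows a share of up to 10.7% for promoter peaks. An ATAC promoter interval was present for 27 of them. Among all genes with such an interval, 1.58% had an ATAC-overlapping promoter peak, so none among so few genes does not set these factors apart. Erg, an ETS-family factor, had an intronic peak outside ATAC with 17 tags. Slamf1, a surface receptor of blood stem cells, had an ATAC-overlapping promoter peak with 35 tags and 23.4% covered, and Thy1 a peak outside ATAC with 20. Tfrc, the transferrin receptor, had an ATAC-overlapping peak with 43 tags in intron 2 of 18, and Rhd one outside ATAC with 18. Cd14, Ebf1 and Mbp, of the monocyte, lymphoid and non-blood lists, each had 1 peak, outside ATAC, with 18, 24 and 19 tags. The 13 mast cell and megakaryocyte genes had none. These lists describe where peaks lay and do not identify the sorted cells.

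The STAT3 and SOX4 peak lists of the series, both from lin-CD34+ cells, were also laid over the GABPa peaks. A STAT3 peak overlapped 67 of the ATAC-overlapping GABPa peaks (16.1%) and 2 of those outside ATAC (0.112%). At promoters the counts were 55 of 238 for ATAC-overlapping peaks and 1 of 53 outside. Eif3k, Mrpl30, Yars, Eif4e, Prpf19, Prpf18 and Cdc6 were list members with such a shared promoter peak. A SOX4 peak overlapped 15 ATAC-overlapping GABPa peaks (3.61%, 2.03 to 5.88) and 32 outside (1.80%, 1.23 to 2.53), with intervals that overlap. At promoters it overlapped 7 of 238 ATAC-overlapping GABPa peaks (2.94%) and 3 of 53 outside (5.66%).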

How the data were processed

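GABPa ChIP-seq of lin-CD34- EML cells and ATAC-seq of lin-CD34+ EML cells, 1 library each, were used as deposited peak lists. Per the submitters' processing notes, the tools were MACS2, Picard, SAMtools, HOMER, Bowtie2 and CASAVA 1.7, with no role stated, on build mm10. The sources used here do not give the peak calling settings or any shift of ATAC reads. Tags are deposited whole-number counts of reads per peak, per the file headers. Each deposited score is, per the file headers, the log10 of a p-value multiplied by −10. Fold enrichment was deposited as the authors' ratio over background, and the false discovery rate (FDR) is a deposited percent. All listed GABPa peaks had a fold of at least 10 and an FDR under 5%. The FDR was largest, 4.76%, for the peak with the highest score, so stronger peaks above that limit may not be listed. Deposited positions and annotation were used unchanged, 1-based. The ATAC list has no score. The weakest listed GABPa peaks had 10 tags.

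Peaks on X, Y and unplaced contigs were left out, and 50963 ATAC entries repeating an interval were dropped. Overlap needed 1 bp. Shares have exact Clopper-Pearson 95% intervals. Promoter windows of 300 bases came from RefSeq (GRCm38.p6). The deposited TSS distance matched a RefSeq start within 100 bp for 176 of 198 promoter peaks checked. The motif was planned per gene, but windows were at hand for 182 of 238 genes with ATAC-overlapping and 37 of 53 genes with other promoter peaks, too few for that check, which is void. Windows were therefore grouped by the coordinates of the peaks over them. Matching of overlaps and counts was tested on simulated data.

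Named genes were those of the highest scores in each class (10 ATAC-overlapping promoter, 8 outside promoters and repeats, 5 repeat peaks; 8, 8, 5 and 5 in the classes outside ATAC), up to 4 members of each of 17 gene lists per kind of peak, Gabpa, the 5 genes with most peaks, and genes with both kinds of promoter peak, of which there were 0. Pard3 and Wwox are named for lying at the overlap limit. Of 654 list genes, 607 were named in the series. Members and lists were chosen with earlier results of these data known. Alternatives covered the overlap rule, score, repeats, chromosomes, promoter window, motif and ATAC width. Scripts ran in Python 3.11.15 (scipy 1.17.1, pandas 2.3.3, numpy 2.4.6; figures with matplotlib 3.10.9).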

Additional observations from a re-analysis of the deposited data

Results flagged for a closer look

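Peaks on X, Y and unplaced contigs lie outside the comparison and are given as values. X had 110 GABPa peaks, of which 9 overlapped an ATAC interval (8.18%, 3.81 to 15.0). Y had 183 GABPa peaks and 19 ATAC intervals, and 0 of the peaks overlapped, which allows a share of up to 1.64% by a limit of 3 counts, with an exact upper 95% limit of 2.0%. Unplaced contigs had 38 GABPa peaks and no ATAC interval. LINE-1 elements held 29.1% of the GABPa peaks on X, 27.9% of those on Y and 39.5% of those on contigs. The median was 13 tags per peak on X, 16 on Y and 17 on contigs.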

How the results depend on the processing

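Of 72 alternative values over 9 results and 11 settings, 27 stayed within the interval of the value reported and 45 moved outside it. In every setting that gave both values, promoters held more of the ATAC-overlapping peaks than of the others, LINE-1 elements fewer, and the median of tags was higher.

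The overlap share (19.0%) was 5.70% with at least 50% of the peak covered, 7.43% by peak centre, 10.9% for 200 bp around the centre, 27.2% for scores above the median, 30.7% without repeats, 16.8% on all chromosomes, 15.5% with ATAC intervals wider than the median, and 7.47% by summit, a setting chosen after seeing the data. In the order 50% covered, centre, 200 bp, score and summit, the promoter share of ATAC-overlapping peaks was 91.2%, 81.6%, 72.8%, 69.1% and 83.5%, and that of peaks outside 8.55%, 7.78%, 5.98%, 4.51% and 7.59%. Without repeats the promoter share was 69.9% overlapping ATAC and 6.14% outside, for a window of 500 bp 43.3% overlapping and 1.35% outside, for 5000 bp 69.0% overlapping and 24.2% outside, and on all chromosomes 5.24% outside ATAC. The LINE-1 share of ATAC-overlapping peaks was 0% at 50% covered, 1.23% by centre, 1.67% at 200 bp and 0% by summit. Outside ATAC it was 25.3% at 50% covered, 25.7% by centre, 20.3% by score and 25.8% by summit. Median tags of ATAC-overlapping peaks were 33, 34, 32, 34 and 35 in that order of 5 settings, and 15 outside ATAC by score.

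The motif share per gene was 45.1% for genes with ATAC-overlapping promoter peaks and 8.11% for those with other promoter peaks, from too few matched genes. With the longer motif it was 23.6% for genes with ATAC-overlapping peaks and 0% for the others. For genes with other promoter peaks it was 36.1% at 50% covered, 34.2% by centre, 30.8% at 200 bp and 33.0% by summit: there the stricter rule counts peaks that touch ATAC as outside it. That contrast therefore rests on the 1 bp rule. The causes of the other shifts were not tested.

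No paired analysis was possible because each group had 1 library and no replicate.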
